A study of Mus musculus with 6 samples.

Results

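Costimulatory and checkpoint molecules are the surface proteins through which an antigen-presenting cell tells a T cell whether to respond to the peptide it is shown. The genes described here are 10 such genes, chosen by symbol: Cd80, Cd86, Icosl, Cd274, Pdcd1lg2, Tnfsf4 and Cd70, which encode ligands for T cell receptors of costimulation or inhibition, and Cd40, Cd83 and Cd200r1, which encode surface proteins of the antigen-presenting cell itself. Of these 10, 9 had values among the 26110 genes of the table, and Cd70 was not analysed here. Bulk RNA-seq compared 3 CX3CR1- with 3 CX3CR1+ libraries of MHCII hi cells that had been sorted from the muscularis externa (ME), the muscle layer of the small bowel. Both populations came from naive, untreated female mice of the CX3CR1+/GFP genotype on a C57BL/6 background, so every cell in both groups carries GFP in place of 1 Cx3cr1 allele, and the age of the mice is not given in the sources used here. Each group was a pool of ME from 6 mice, and the sources do not say if every library had a separate pool, so the spread between libraries may be technical. The labels call both populations dendritic cells and the paper calls them macrophages. For the CX3CR1- cells the paper cites IBA-1 staining and flow cytometry, where most were CD11b positive and very few carried CD11c or CD103. Its RNA-seq also listed dendritic cell markers among the most different genes, with more CD103 and Flt3 transcript in the CX3CR1- cells. From the flow cytometry, the paper regards contamination by dendritic cells as very low and probably negligible.

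T cells that meet their antigen need a further signal, which CD80 and CD86 give through CD28, ICOSL through ICOS, OX40L (Tnfsf4) through OX40 and CD70 through CD27. The same contact can also restrain them, since CD80 and CD86 bind the inhibitory receptor CTLA-4 as well, and PD-L1 (Cd274) and PD-L2 (Pdcd1lg2) bind PD-1. In the opposite direction, T helper cells activate the antigen-presenting cell through CD40, CD83 protects MHC class II and CD86 on its surface from degradation, and CD200R1 conveys an inhibitory signal to the myeloid cell when it meets CD200.

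Sequences around a RefSeq start site of 4 of these genes were at hand, as promoters of GRCm38.p6. They span 250 bases before and 50 bases after that site. The Cd80 window lies inside the GENCODE span of the gene, which begins upstream at 38455561. Its positions therefore refer to a start site within that span. Icosl and Cd80 are shown because they are a ligand that differed between the populations and one that did not pass the test, and Cd274 and Pdcd1lg2 because the ligands of PD-1 are neighbours on chromosome 19 with 22823 bases between them, and their levels lay far apart. The windows are chr10:78069118-78069417, chr16:38458683-38458982, chr19:29367188-29367487 and chr19:29410669-29410968, all on the plus strand, and capitals mark a motif match.
Icosl: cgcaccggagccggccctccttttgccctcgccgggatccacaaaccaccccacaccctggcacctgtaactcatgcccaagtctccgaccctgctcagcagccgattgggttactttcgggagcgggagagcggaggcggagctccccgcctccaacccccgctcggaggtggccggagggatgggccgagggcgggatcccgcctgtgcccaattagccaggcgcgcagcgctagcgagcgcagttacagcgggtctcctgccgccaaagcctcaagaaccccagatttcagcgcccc
Cd80: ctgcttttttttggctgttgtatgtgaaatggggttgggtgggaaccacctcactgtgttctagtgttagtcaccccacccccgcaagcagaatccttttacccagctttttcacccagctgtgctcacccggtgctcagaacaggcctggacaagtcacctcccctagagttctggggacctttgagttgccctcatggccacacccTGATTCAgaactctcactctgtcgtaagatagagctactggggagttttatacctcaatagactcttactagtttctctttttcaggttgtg
Cd274: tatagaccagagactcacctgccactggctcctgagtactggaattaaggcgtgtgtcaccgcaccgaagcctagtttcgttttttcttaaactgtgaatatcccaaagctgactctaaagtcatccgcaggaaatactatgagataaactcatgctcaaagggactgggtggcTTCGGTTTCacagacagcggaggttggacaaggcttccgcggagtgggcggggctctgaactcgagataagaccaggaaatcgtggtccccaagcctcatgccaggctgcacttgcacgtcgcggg
Pdcd1lg2: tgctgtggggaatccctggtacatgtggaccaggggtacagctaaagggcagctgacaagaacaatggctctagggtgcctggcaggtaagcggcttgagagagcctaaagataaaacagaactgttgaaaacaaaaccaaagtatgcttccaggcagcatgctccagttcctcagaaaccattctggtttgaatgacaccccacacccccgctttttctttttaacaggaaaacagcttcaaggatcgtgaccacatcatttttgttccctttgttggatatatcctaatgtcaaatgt
In the Cd274 window, the capitals are a match on the minus strand to the interferon response motif GAAANNGAA. As printed on the plus strand, these capitals begin at -76 from the start site. In the Cd80 window, the capitals at -42 are a match to the AP-1 motif TGANTCA, which reads alike on both strands. Of 32544 promoters of this length, 8.53% held the interferon response motif and 7.79% the AP-1 motif. The motifs for NF-kB (GGGNNTTCC, in 5.85% of promoters), STAT (TTCNNNGAA, 8.33%) and PU.1 (GAGGAAGT, 3.11%) had no match in the 4 windows on either strand, and the Icosl and Pdcd1lg2 windows held none of the 5 motifs. The Icosl window was the richest in GC, with 68.0%, against 49.7% for Cd80, 52.7% for Cd274, 46.0% for Pdcd1lg2 and a median of 53.0% over all promoters.

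Levels are values that the authors normalized between libraries, and the replicates of each population are numbered in the order of their library numbers. The low values rise in whole steps of 1 read, from which the libraries held about 5346379 to 17616748 reads, and 3 reads, taken as the floor of measurement, were worth 1.39 to 5.36. Cx3cr1 itself lay at 18.9 to 28.5 in CX3CR1- cells and at 347 to 380 in CX3CR1+ cells, and Ptprc (CD45) at 2860 to 4526 and 3897 to 4579. Mitochondrially encoded genes made up 47.5 to 54.9% of the values in CX3CR1- libraries and 18.1 to 21.2% in CX3CR1+ libraries. The counts of called genes are therefore also given with a scaling to the total without these genes.

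Of the 9 genes, 7 passed the filter on low values (a mean value of 10 or more) and were tested with limma among 17812 genes. A gene was called at a log2 fold change of at least 1 in size and a Benjamini-Hochberg adjusted p of at most 0.05. Cd83, Cd86, Cd40 and Icosl were lower in CX3CR1- cells, and none of the 7 was called higher. Over all tested genes, 8.15% were called lower and 12.2% higher in CX3CR1- cells. The same 4 were the genes whose libraries did not overlap between the populations, against a background of 19.8% of tested genes that lay lower without overlap and 20.3% that lay higher. The median log2 fold change of the 7 genes, CX3CR1- minus CX3CR1+, was -1.13, and that of all tested genes was -0.00349. In bulk RNA, fewer cells that express a gene and less RNA per cell cannot be told apart.

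**Figure D1:**
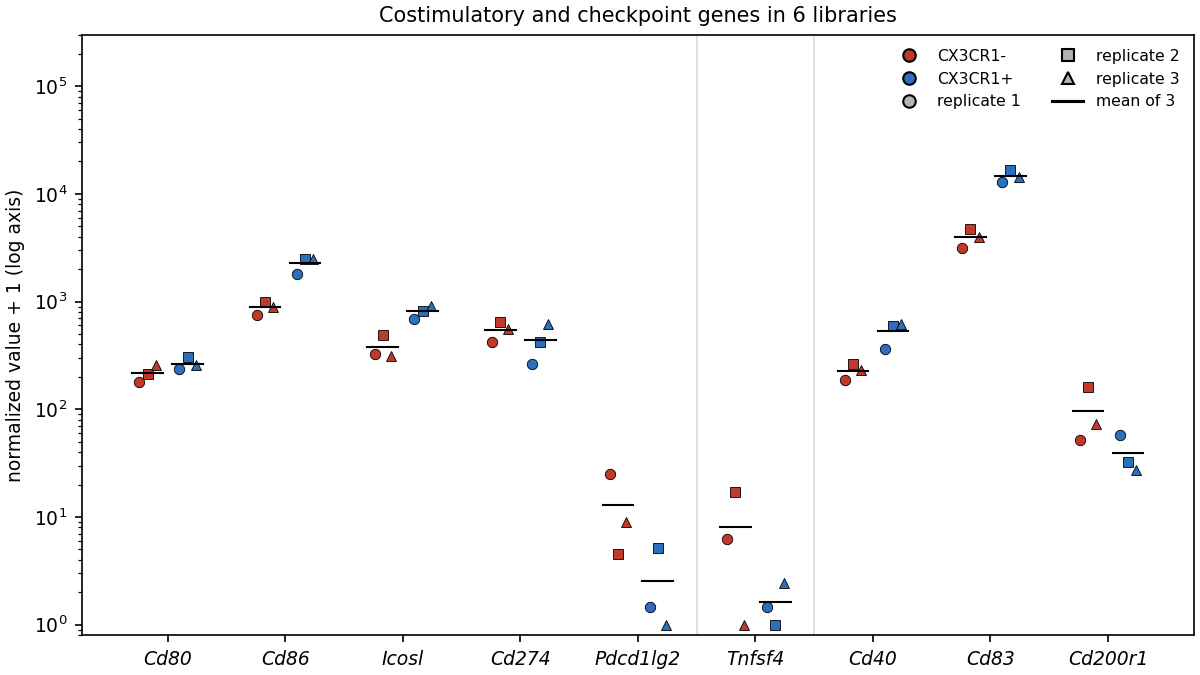
Normalized value plus 1 (log axis) of the 9 genes in the 3 CX3CR1- (red) and 3 CX3CR1+ (blue) libraries, with a marker shape per replicate and a bar at the mean of 3. For Cd86, Icosl, Cd40 and Cd83, each red point lies below each blue point, whereas Cd80, Cd274 and Cd200r1 overlap, and Pdcd1lg2 and Tnfsf4 lie near the floor.

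Among the ligands of CD28 and CTLA-4, Cd86 differed between the populations and Cd80 did not pass the test. Cd86 (chr16:36603869-36666081, minus strand) lay at 758, 990 and 893 in CX3CR1- replicates 1, 2 and 3, and at 1806, 2501 and 2477 in the CX3CR1+ replicates. Every CX3CR1- library lay below every CX3CR1+ library, and the lowest CX3CR1+ value was replicate 1. The means were 880 ± 117 and 2261 ± 395 (SD, n = 3 each), which is 2.57-fold lower in CX3CR1- cells, with a log2 fold change of -1.35 ± 0.19 (SE, limma adjusted p = 5.02e-04).

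Cd80 (chr16:38455561-38496335, plus strand), on the same chromosome, lay at 177, 213 and 257 in CX3CR1- replicates and at 234, 303 and 258 in CX3CR1+ replicates. The groups overlapped, since CX3CR1- replicate 3 exceeded CX3CR1+ replicate 1 and almost equalled replicate 3. Its means were 216 ± 40.0 and 265 ± 35.1 (SD, n = 3 each), and the log2 fold change was -0.30 (95% interval -0.81 to 0.21, limma adjusted p = 0.388). The interval includes no difference and ends short of the fold change of 1 that a call requires.

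The balance of both ligands within a library stays the same when the library is multiplied by a factor. The value of Cd86 was 4.27, 4.65 and 3.47 times that of Cd80 in CX3CR1- replicates and 7.73, 8.26 and 9.61 times in CX3CR1+ replicates. The ratios of the populations did not overlap, and the log2 ratio of Cd80 to Cd86 was higher by 1.05 in CX3CR1- cells. The exact two-sided permutation test gave p = 0.1, the smallest that 3 libraries against 3 allow, and 0.15 adjusted over the 3 ratios computed. Quantile normalization, which is no single factor per library, gave log2 fold changes of -0.29 for Cd80 and -0.95 for Cd86, which lie closer together than the deposited ones, and the ratio was not tested on that scale.

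Icosl (chr10:78069302-78083913, plus strand), whose promoter is shown above and whose product is the ligand of ICOS, was also lower in CX3CR1- cells. Its value was 325, 488 and 312 in CX3CR1- replicates and 695, 813 and 918 in CX3CR1+ replicates. No CX3CR1- library reached a CX3CR1+ library, although replicate 2 stood above the other two of its group. The means were 375 ± 97.8 and 809 ± 112 (SD, n = 3 each), a 2.16-fold difference with a log2 fold change of -1.13 ± 0.22 (SE, limma adjusted p = 0.00430).

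Cd83 had the highest level of all 9 genes and the largest fold change among the 7 tested. This gene (chr13:43784775-43803132, plus strand) encodes an immunoglobulin superfamily protein known as a marker of mature dendritic cells. It lay at 3170, 4672 and 3973 in CX3CR1- replicates and at 12892, 16591 and 14327 in CX3CR1+ replicates. The populations were far apart compared with their spread, with means of 3938 ± 751 and 14603 ± 1865 (SD, n = 3 each). The log2 fold change was -1.90 (95% interval -2.28 to -1.52), and 3.54% of all tested genes had a lower one.

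Cd40 (chr2:165055627-165072948, plus strand), a receptor of the TNF receptor superfamily that CD40L on T helper cells engages, lay at 187, 263 and 230 in CX3CR1- replicates. In CX3CR1+ replicates it lay at 363, 594 and 625, of which replicate 1 was the closest to the CX3CR1- libraries without reaching them. The means were 227 ± 38.2 and 527 ± 143 (SD, n = 3 each), a 2.32-fold difference with a log2 fold change of -1.19 ± 0.26 (SE, limma adjusted p = 0.00712).

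The value of Cd83 was 16.9, 17.7 and 17.3 times that of Cd40 in CX3CR1- replicates, and these 3 libraries were close to each other. In CX3CR1+ replicates it was 35.6, 27.9 and 22.9 times, so that the groups did not overlap and the CX3CR1+ libraries spread more widely. The log2 ratio of Cd40 to Cd83 was higher by 0.72 in CX3CR1- cells, with an exact two-sided permutation p of 0.1 (0.15 adjusted over the 3 ratios).

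**Figure D2:**
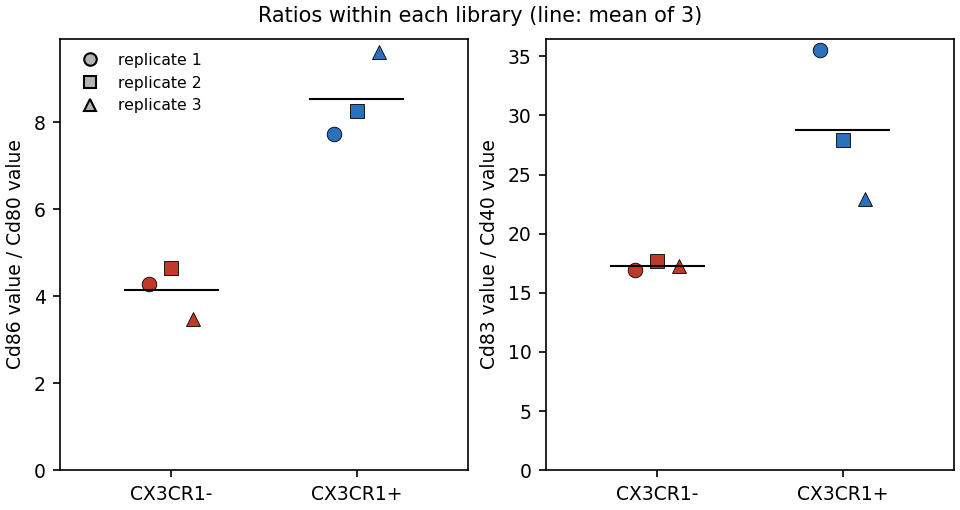
Ratio of the normalized values of Cd86 to Cd80 (left) and of Cd83 to Cd40 (right) within each library, with linear axes from 0, a marker shape per replicate and a bar at the mean of 3. Each CX3CR1+ library (blue) lies above each CX3CR1- library (red) in both panels, from 7.73 against 4.65 at the closest on the left and from 22.9 against 17.7 on the right.

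For the ligands of PD-1 no difference between the populations was detected, and only Cd274 passed the filter on low values. Cd274 (chr19:29367455-29388095, plus strand), which encodes PD-L1, lay at 421, 646 and 553 in CX3CR1- replicates and at 262, 424 and 618 in CX3CR1+ replicates. The groups overlapped over most of their range, and the highest CX3CR1+ library exceeded 2 of the 3 CX3CR1- libraries. Its means were 540 ± 113 and 434 ± 178 (SD, n = 3 each), with a log2 fold change of 0.38 (95% interval -0.30 to 1.05, limma adjusted p = 0.419). The interval reaches the fold change of a call, so a difference of that size lies within it. An annotated gene on the opposite strand, AC119228.1, overlaps Cd274 and shares 12.1% of its stretches of 31 bases, and the library kit does not mark strand, so reads of both cannot be told apart there.

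Pdcd1lg2 (chr19:29410919-29471161, plus strand), which encodes PD-L2, was near the floor. It lay at 24.0, 3.58 and 7.98 in CX3CR1- replicates and at 0.463, 4.10 and 0 in CX3CR1+ replicates, which is worth about 23, 2 and 8 reads against 1, 5 and 0 reads. Of the CX3CR1- libraries 2 lay above the floor and of the CX3CR1+ libraries 1, and the groups overlapped. With a mean of 6.69 it was below the filter. A fit without that filter gave a log2 fold change of 2.37 and an adjusted p of 0.10 with limma, and the exact two-sided permutation p was 0.2. Within libraries, the log2 ratio of Cd274 to Pdcd1lg2 was lower by 1.99 in CX3CR1- cells, overlapped between the groups (exact permutation p = 0.2, also 0.2 after adjustment) and rests on values at the floor. It was -0.46 with a pseudocount of 10 (exact permutation p = 0.6), -1.17 without CX3CR1- replicate 1, -1.21 without CX3CR1+ replicate 3 and down to -2.70 without another library.

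Tnfsf4 (chr1:161395409-161418410, plus strand), which encodes the TNF superfamily ligand OX40L, was lower still. Its value was 5.22, 16.1 and 0 in CX3CR1- replicates and 0.463, 0 and 1.42 in CX3CR1+ replicates, worth about 5, 9 and 0 reads against 1, 0 and 1. All CX3CR1+ libraries lay under the floor, CX3CR1- replicate 3 was listed at 0, and the groups overlapped. Without the filter its log2 fold change was 1.64 (limma adjusted p = 0.339), so that no difference was detectable at this depth.

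Cd200r1 (chr16:44765736-44794978, plus strand) had the highest log2 fold change of the 7 tested genes, but it did not pass the test. It lay at 51.4, 161 and 72.2 in CX3CR1- replicates and at 57.0, 31.3 and 26.2 in CX3CR1+ replicates. CX3CR1- replicate 2 stood above all others, and CX3CR1- replicate 1 lay below CX3CR1+ replicate 1. The means were 94.8 ± 58.1 and 38.1 ± 16.5 (SD, n = 3 each), and the log2 fold change was 1.20 (95% interval 0.16 to 2.24, limma adjusted p = 0.0909). Without CX3CR1- replicate 2 it was 0.74. Cd200r1 shares 2.53% of its stretches of 31 bases with its relative Cd200r4, so the assignment of some reads is uncertain.

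**Figure D3:**
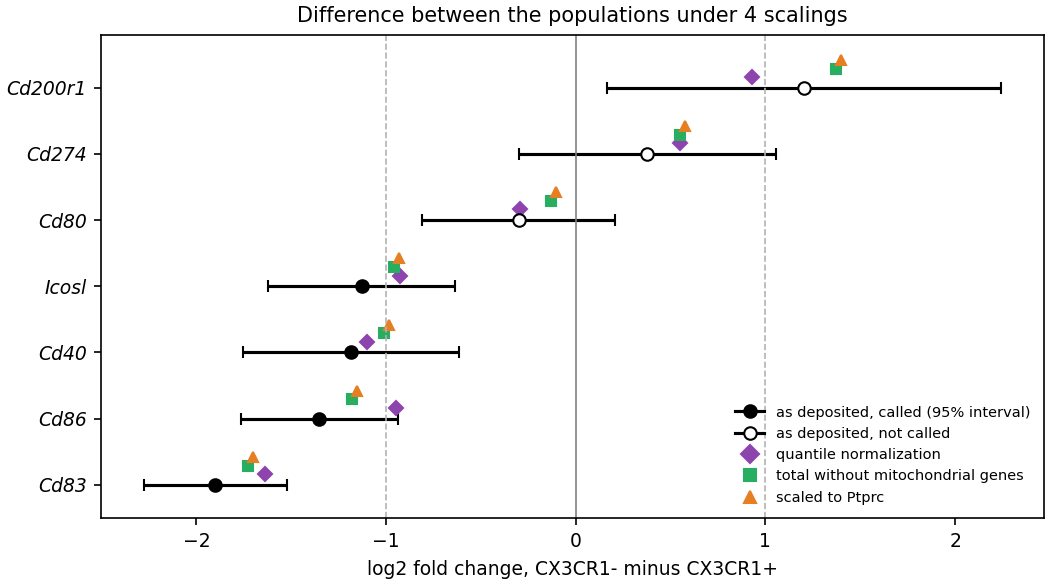
Log2 fold change, CX3CR1- minus CX3CR1+, of the 7 tested genes with its 95% interval (black, filled where called) and, above each, its value under quantile normalization (diamonds), scaling to the total without mitochondrial genes (squares) and scaling to Ptprc (triangles). Cd83, Cd86, Cd40 and Icosl lie between -1.90 and -1.13 as deposited, and no gene changes its side of 0 under a scaling.

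The count of genes called depended on the scaling between libraries. With quantile normalization 2 of the 7 were called (Cd83 and Cd40), with scaling to the total without mitochondrial genes 3 (Cd83, Cd86 and Cd40), and with scaling to Ptprc 2 (Cd83 and Cd86), all lower in CX3CR1- cells. The values not called lay between -0.99 and -0.92, just inside the threshold on fold. These scalings moved the median of all tested genes to -0.15, 0.16 and 0.19, and the split of all calls from 2177 higher and 1451 lower in CX3CR1- cells to 1716 and 1674, 2487 and 1116, and 2272 and 922. Relative to that median, Icosl lay at -0.78, -1.12 and -1.12, and Cd83 at -1.49, -1.89 and -1.89.

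CX3CR1- replicate 1 was the lowest of its group for 6 of the 7 tested genes, and replicate 2 the highest for 6 of 7. CX3CR1+ replicate 1 was the lowest of its group for 6 of 7 and the highest for Cd200r1, whereas replicates 2 and 3 were each the highest for 3 of 7. The coefficient of variation over 3 libraries had a median of 19.1% in CX3CR1- cells (13.3 to 61.3%) and 17.5% in CX3CR1+ cells (12.8 to 43.3%), with the highest value for Cd200r1 in both populations.

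To compare genes with each other, values were divided by the mean transcript length in kilobases. In CX3CR1- cells the order was Cd83 (1699 per kilobase), Cd86 (747), Cd40 (209), Icosl (171), Cd274 (149), Cd80 (115), Cd200r1 (47.6), Pdcd1lg2 (7.02) and Tnfsf4 (3.86). Cd40, Icosl, Cd274 and Cd80 overlapped each with its neighbour in this order, as did Pdcd1lg2 and Tnfsf4, and the libraries of all other neighbours did not overlap. In CX3CR1+ cells the order was Cd83 (6301), Cd86 (1918), Cd40 (486), Icosl (369), Cd80 (141), Cd274 (120), Cd200r1 (19.2), Pdcd1lg2 (0.901) and Tnfsf4 (0.340). Here Cd40 and Icosl overlapped, as did Cd80 and Cd274, and Pdcd1lg2 and Tnfsf4. Cd83 and Cd86 thus had the highest levels per kilobase in both populations and the ligands of PD-1 stood far apart, with PD-L1 in the middle of the order and PD-L2 near its end. Taking the longest transcript in place of the mean length left 7 of the 9 genes in their place in CX3CR1- cells and 5 of 9 in CX3CR1+ cells, with Cd83 and Cd86 still on top. In CX3CR1- cells Cd40 then fell from rank 3 to rank 5 (76.0 per kilobase) and Cd274 rose from rank 5 to rank 3 (149). In CX3CR1+ cells Cd40 and Icosl changed places, as did Cd80 and Cd274. The order and the overlaps of these middle genes thus depend on the length used.

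The genes whose profile over the 6 libraries was closest to a called gene were found by the Euclidean distance of centred log2 values. For a called gene this distance depends mainly on the difference between the populations, so genes with a similar fold change come out closest. Shared regulation was not tested. For Cd86 they were Plek, Gm28826 and Slamf7, with Plek at a distance of 0.13. For Cd83 they were Man1a, Igsf6 and Rab20, for Cd40 Donson, Zfp64 and Mir155hg, and for Icosl Trim14, Gm43513 and Lcp2. Mir155hg is the host gene of the microRNA miR-155. Among the called genes themselves, Cd86 and Cd40 were the closest, at 0.32, and Cd83 and Icosl the farthest apart, at 1.04.

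Other costimulatory and checkpoint genes of antigen-presenting cells moved in both directions. Of 20 such genes, 19 had values and 17 were tested, of which 3 were higher and 3 lower in CX3CR1- cells. Their median log2 fold change was -0.47, and over all tested genes 12.2% were called higher and 8.15% lower. The genes called lower were Sirpa (710 against 3078, log2 fold change -2.11), whose product receives the CD47 signal that restrains phagocytes, Vsir (530 against 1166, -1.21), which encodes the checkpoint protein VISTA, and Tnfsf14 (7.70 against 29.5, -1.82), which encodes the TNF superfamily ligand LIGHT. Those called higher were Havcr2 (548 against 246, 1.15), which encodes TIM-3, Cd244 (94.5 against 12.6, 3.00), which encodes a receptor of CD48, and Btla. Btla, an inhibitory receptor of lymphocytes and some dendritic cells, lay at 462, 394 and 471 in CX3CR1- replicates and at 0, 1.64 and 0 in CX3CR1+ replicates, all of the latter under the floor.

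Around CD40, 15 genes of its signalling pathway were tested, of which 1 was called higher and 3 lower in CX3CR1- cells. Their median log2 fold change was -0.80. Beside these counts stand shares of 12.2% called higher and 8.15% called lower over all tested genes. Without overlap between the populations, 8 of the 15 lay lower in CX3CR1- cells and 3 higher, against 19.8% and 20.3% of all tested genes. Traf1, which encodes an adaptor of TNF receptors, was higher (847 against 411, log2 fold change 1.04), and Tank (591 against 2144, -1.86), Tnfaip3 (2984 against 7691, -1.35), which encodes the NF-kB inhibitor A20, and Birc3 (1374 against 3093, -1.15) were lower. Around CD200R1, 7 genes of its receptor family and adaptors had values and 6 were tested, to be set beside the same shares. The adaptor gene Dok2 was 5.69-fold higher (log2 fold change 2.44) and Inpp5d, which encodes the lipid phosphatase SHIP1, lower (534 against 1253, -1.23), with a median of -0.81 over the 6.

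Of 13 genes for turnover and transcription of these ligands, 2 were called higher and 1 lower in CX3CR1- cells, with a median log2 fold change of -0.51. The shares over all tested genes were 12.2% higher and 8.15% lower. Of the 13 genes, 8 lay lower in CX3CR1- cells without overlap and 3 higher, beside 19.8% and 20.3% of all tested genes. The counts of this list were not tested against these shares. The transcription factor gene Irf4 (903 against 291, log2 fold change 1.64) and the kinase gene Jak2 (1138 against 388, 1.55) were higher, and Cmtm4 (145 against 290, -1.03), whose product with that of Cmtm6 keeps PD-L1 on the surface, was lower. March1, whose product marks CD86 and MHC class II for degradation, lay at 325 ± 69.7 against 586 ± 161 (SD, n = 3 each), with a log2 fold change of -0.84 short of a call (limma adjusted p = 0.0329). Genes for the binding partners of these proteins are given as background. They encode T cell proteins and, with Cd200, the partner of CD200R1. Of 8 such genes 6 had values, 5 were tested, and Ctla4 (36.2 against 1.19, log2 fold change 4.20) and Cd200 (72.7 against 7.64, 3.25) were higher in CX3CR1- cells, whereas Cd28 (45.2 against 16.7, 1.46) was not called (limma adjusted p = 0.0936).

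Across scalings, the counts for the other costimulatory and checkpoint genes were 3 higher and 2 lower with the total without mitochondrial genes or Ptprc, where Tnfsf14 was no longer called. With quantile normalization the counts stayed at 3 higher and 3 lower. Vsir was not called there, so the 3 genes called lower were not the same ones. The counts for CD40 signalling were 1 higher and 1 lower with quantile normalization, and 1 higher and 2 lower with the total without mitochondrial genes or Ptprc. For turnover and transcription they were 3 higher and 0 lower with the total without mitochondrial genes or Ptprc, where Cmtm4 was no longer called. For the CD200 receptor family no gene was called lower with quantile normalization.

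**Figure D4:**
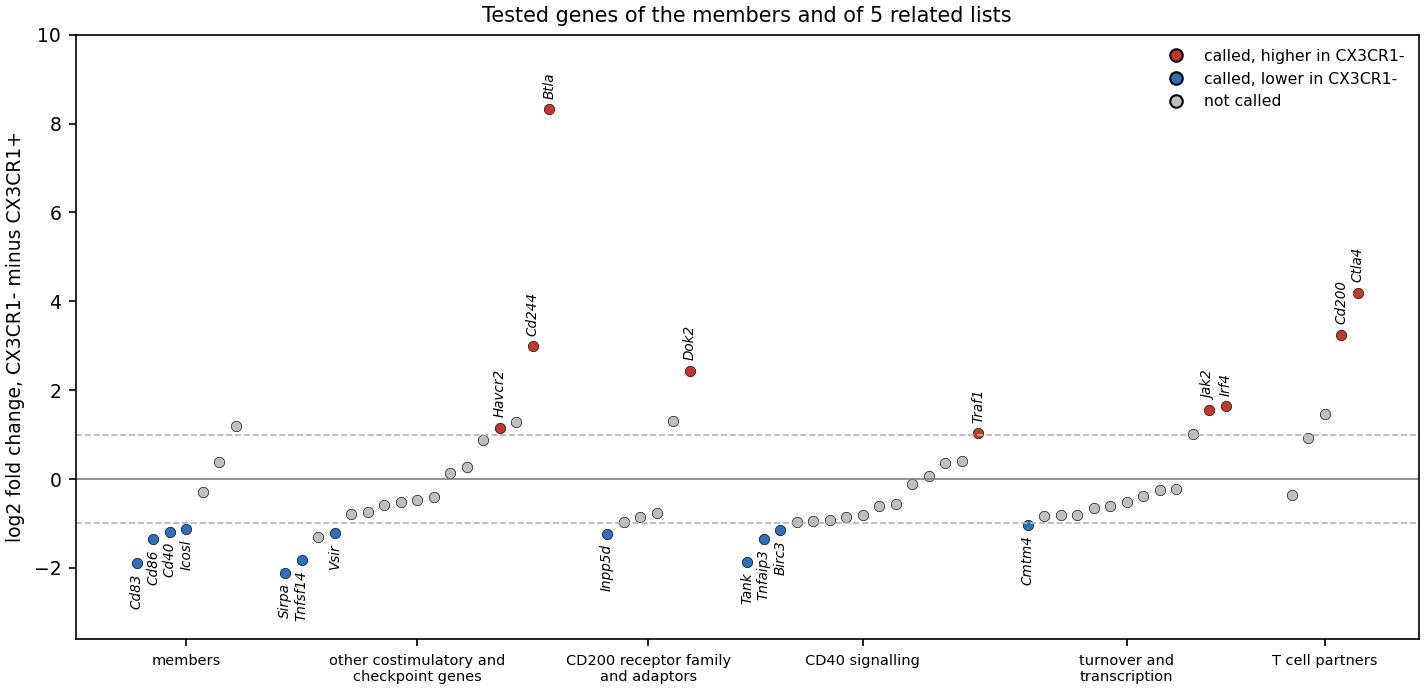
Log2 fold change, CX3CR1- minus CX3CR1+, of each tested gene among the 10 costimulatory and checkpoint genes and 5 related lists, ordered within each list, with genes called higher in CX3CR1- cells in red, called lower in blue and others in grey. Dashed lines mark a log2 fold change of 1 in either direction, and Btla, whose CX3CR1+ libraries lie under the floor, has the highest plotted value, which depends on the pseudocount.

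Other cell types also carry these molecules, so their markers are given beside the results. Among all tested genes, 12.2% were called higher and 8.15% lower in CX3CR1- cells. Markers of macrophages were lower in CX3CR1- cells for 10 of 10 genes, with a summed level of 6995 to 8271 against 35688 to 40485. Markers of conventional dendritic cells were higher for 8 of 9 genes (4211 to 4647 against 460 to 491), and those of mature migratory dendritic cells for 9 of 9 (2249 to 2697 against 233 to 276). The latter count was 6 of 9 with quantile normalization and 8 of 9 with scaling to Ptprc. For the proteins that the paper cites, the RNA of Aif1 (IBA-1) lay at 275 in CX3CR1- cells against 1377 in CX3CR1+ cells. Itgax (CD11c) lay at 645 against 152 and Itgae (CD103) at 347 against 1.71. These are RNA levels of a bulk population, whereas the paper stained protein on single cells. Mature migratory dendritic cells are known for high CD83, CD86 and CD40, and their part in the values of these genes was not tested. Markers of B cells, which also carry CD40, CD86 and ICOSL, were higher for 7 of 8 genes (1052 to 1344 against 187 to 194), with Blk at 0 in all CX3CR1+ libraries.

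Of 10 T cell markers 4 were tested, and Cd2 and Cd8a were higher (Cd8a not with quantile normalization). Cd3d and Cd247 (log2 fold change -0.32) were not called and overlapped between the populations. The other markers were below the filter, where Cd5 was lower without overlap (2.85 against 8.42) and the rest overlapped. The summed level of all 10 was 375 to 431 in CX3CR1- libraries and 194 to 273 in CX3CR1+ libraries. Epithelial markers were higher for 8 of 8 genes (15788 to 27003 against 23.1 to 43.1, with Alpi at 0 in all CX3CR1+ libraries), and those of fibroblasts and mesothelium for 5 of 6 tested (3571 to 10604 against 176 to 317). The 5 called were all fibroblast genes. Of the mesothelial markers, Upk3b was not called (log2 fold change 0.46, limma adjusted p = 0.855) and Msln was below the filter, and both overlapped between the populations. Of 7 markers of neutrophils, mast cells and eosinophils 2 had values, of which Csf3r was lower in CX3CR1- cells and Prg2 was listed at 0 in all CX3CR1+ libraries. The MHC class II gene H2-Aa was also called lower in CX3CR1- cells (23064 against 46138), and H2-Ab1 (log2 fold change -0.64) and H2-Eb1 (-0.94) lay short of a call. The part of these cell types in the differences of the costimulatory genes was not tested.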

How the data were processed

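RNA-seq was performed on 3 CX3CR1- and 3 CX3CR1+ libraries of sorted ME cells, which were assigned to their population by the sample labels. The authors pseudoaligned the reads to the mouse transcriptome (mm10, GENCODE release M16) with Kallisto, used tximport to sum the estimated counts by gene, and applied the DESeq2 normalization. What the authors deposited is thus a normalized signal and not counts. Only 42.5 to 44.6% of the values above 0 were whole multiples of 1 read (within 0.01), so no count test was run. Pseudoalignment splits reads between similar transcripts, which can move values of genes with shared sequence.

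limma 3.58.1 in R 4.3.3 was fitted to log2(value + 1) of the 17812 genes whose mean value was 10 or more (lmFit, then eBayes with trend), and two-sided p-values were adjusted by Benjamini-Hochberg across these genes. Fold changes are on that log2 scale, which understates those of low genes, and folds without log2 are ratios of mean values. The precision is given as the SD over 3 libraries, the SE of the fit or its 95% interval. Depth was taken from the smallest step between low values, and a level of 3 reads as the floor. Ratios within libraries were tested with an exact permutation test in scipy 1.17.1, and the ratio of Tnfsf4 to Cd70 of the 4 planned could not be computed. The limma step was tested on simulated data. The design set limma as the main fit, since the values were described as normalized and a count test might not suit them.

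The genes and lists were chosen with earlier results of these data known. Named were all members and the called genes of each list (up to 4 in each direction by adjusted p). The 3 genes closest to each called member and the MHC class II genes were named too. March1, Cd28, Cd3d, Cd247, Cd5, Upk3b, Msln, Aif1, Itgax and Itgae were added after their values had been seen. Of the list genes, Vtcn1, Pdcd1, Cd40lg and 5 markers of neutrophils, mast cells and eosinophils were not analysed here. Gene positions, transcript lengths and shared sequence came from GENCODE M21 (GRCm38), and promoters from RefSeq (GRCm38.p6), in which 4 of the 10 genes matched. Of the symbols, 23 occurred more than once. Alternatives were pseudocounts of 0.5 and 10, no filter, a mean of at least 50, quantile normalization, median-of-ratios rescaling, the total without mitochondrial genes, no trend, library quality weights, a block of adjacent library numbers and leaving out each library. Scaling to Ptprc was added after the data had been seen. Figures were drawn with matplotlib 3.10.9.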

Additional observations from a re-analysis of the deposited data

How the results depend on the processing

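The direction of all 7 tested genes and of the 3 ratios was kept under every alternative that was run for them. No result reversed, but the log2 ratio of Cd274 to Pdcd1lg2 ranged from -2.70 to -0.46. Median-of-ratios rescaling repeats the normalization of the authors. It left Cd86 at -1.35 and Icosl at -1.13, as deposited, so it is no separate check. With quantile normalization Cd86 fell to a log2 fold change of -0.95 (limma adjusted p = 0.00373) and Icosl to -0.92 (0.0155), so that 2 genes were called lower in place of 4. With scaling to the total without mitochondrial genes, Icosl lay at -0.96 (0.00744). With scaling to Ptprc, Cd40 lay at -0.99 (0.0459) and Icosl at -0.93 (0.0201), and 2 genes were called. In each case the adjusted p stayed under the threshold and the fold did not. Leaving out each library in turn left 4 genes called lower and 0 higher, with log2 fold changes of -2.03 to -1.75 for Cd83, -1.51 to -1.25 for Cd86, -1.43 to -1.04 for Cd40, -1.33 to -1.01 for Icosl, -0.44 to -0.17 for Cd80, 0.05 to 0.67 for Cd274 and 0.74 to 1.55 for Cd200r1.

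The populations share no replicate number in the labels. A replicate block of adjacent library numbers, which the labels do not call pairs, changed none of the 7 calls. The depth limits Pdcd1lg2 and Tnfsf4, whose CX3CR1+ libraries held at most 5 reads, and with 3 libraries a group an exact test of a single value cannot go below 0.1. How much of the spread between libraries is biological was not tested.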
